A study of Mus musculus with 2 samples.

Results

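The serpins are a superfamily of protease inhibitors and related proteins, and they were compared here between a lesion-prone and a lesion-resistant stretch of the mouse aorta. Every gene spot whose deposited gene name was Serpin followed by a clade letter from a to i and a number was taken, with control spots left out. This gave 50 genes on 65 probes, of 28658 gene names on 41174 probes. Of these, 42 serpins could be compared, among 22813 genes in all, and 8 were not well above background in any probe. The arch pool held RNA of the root and arch of the aorta together with the most proximal 2 mm of its thoracic stretch, and the thoracic pool held RNA of the following 6 mm. Both pools came from the same 6 apoE-/- mice (3 males and 3 females, 16 weeks old), which lack apolipoprotein E and develop atherosclerosis, and no apoE-competent animals are among the samples. All vessels had been perfused with triton X-100, a detergent used here to strip the endothelium. Both pools were hybridised together on each of 2 arrays, arch in Cy3 on array 1 and in Cy5 on array 2.

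Because each segment was 1 pool, no test between the segments is possible, and no p-value is given. The ± beside a log2 ratio gives the SD of both arrays (n = 2, technical, from the same RNA), which measures labelling and hybridisation and not the spread between mice. All ratios are arch over thoracic, so a positive value means more signal in the arch pool. Signals are background-corrected fluorescence values after normalization, and the levels of different probes are not compared. Where signals of a list are summed, the same probes are added in both pools, and the brightest weigh most. A gene was called different when its mean ratio was at least 2-fold and its ratio on each array at least 1.5-fold in the same direction. The share of gene spots well above background was 76.5% to 82.6% per pool and array. Of 15 keratinocyte markers listed, 13 were compared, of which 12 had this flag in arch and 13 in thoracic. All 15 smooth muscle markers listed were compared and had it in both. A marker was compared only if it had the flag in at least 1 pool on both arrays. High shares among compared markers were thus set by the filter, and how well the flag separates cell types was not tested. The flag alone is not read as presence of a cell type. Of the smooth muscle markers, 3 (Acta2, Tagln and Myl9, which encode contractile proteins) sat on saturated probes. What share of the RNA came from smooth muscle was not measured.

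A serpin folds into a metastable shape with an exposed reactive loop. When a target protease cuts that loop, the serpin snaps shut and traps the protease in an irreversible complex, so each inhibitor molecule is used once. In the vessel wall and in plasma, serpins limit clotting, clot dissolution, complement and the serine proteases of leukocytes. Clade A and most other clades are secreted, clade B members largely stay inside cells, and a few serpins have lost inhibition and act as chaperones or hormone carriers. In the mouse, clades A and B have grown into clusters of near-identical copies, on chromosome 12 for clade A and mainly on chromosomes 1 and 13 for clade B. A probe may not tell such copies apart, so values of the Serpina1, Serpina3, Serpinb1, Serpinb3, Serpinb6 and Serpinb9 genes may include signal from their neighbours.

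None of the 42 serpins met the rule for a difference. The count was 0 higher in arch, against 0.473% of all 22813 genes (108 genes), and 0 higher in thoracic, against 0.145% (33 genes). With 42 genes, both background shares correspond to less than 1 serpin. Serpinb6b, at 1.99-fold higher in arch, came closest. At the looser limit of 1.5-fold on each array, 1 serpin was higher in arch (Serpinb6b), against 1.2% of all genes, and 1 was higher in thoracic (Serpina1d), against 0.381%. The median log2 ratio was -0.02 over the serpins and -0.01 over all genes, and the median size of a ratio was 0.0932 on the log2 scale over the serpins and 0.0751 over all genes. Of the serpins, 33 lay within 0.2 of 0 on the log2 scale and 39 were under 1.5-fold in the mean, a size that 98.1% of all genes stayed under. Most genes of the array also lay within 0.2 of 0. Serpinb9, at 0.19, ranked 2371st of 22813 genes from the arch end, and Serpinf1, at -0.18, ranked 1899th from the thoracic end.

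The direction of small ratios was often not shared by the arrays. The ratio was above 0 on both arrays for 11 serpins (32.4% of all genes), below 0 on both for 15 (35.2% of all genes), and of opposite sign for 16. Signals of the arch pool on both arrays exceeded both thoracic signals for 9 serpins (25.3% of all genes), and the reverse held for 9 others (22.6% of all genes). These shares lie near those of the whole array.

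**Figure D1:**
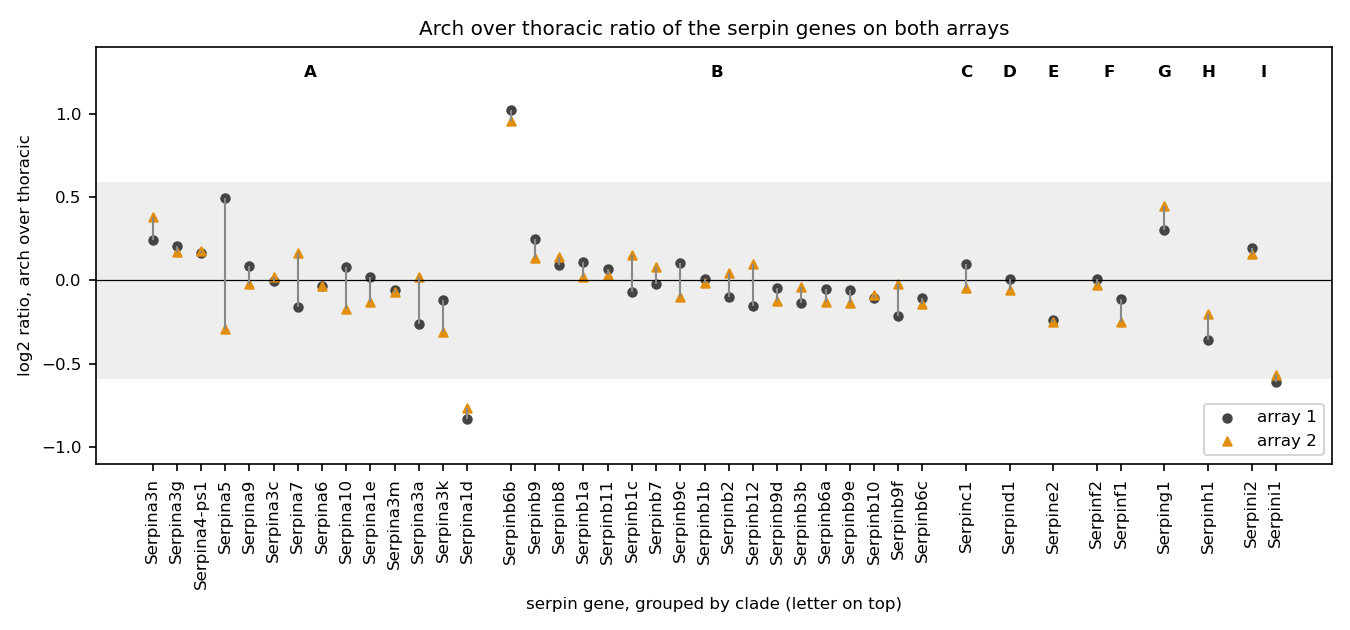
Log2 ratio of arch over thoracic for 41 of the 42 serpins compared, grouped by clade (letter on top), with a circle for array 1, a triangle for array 2 and a grey band for ratios under 1.5-fold. Only Serpinb6b (1.02 and 0.95) and Serpina1d (-0.83 and -0.77) lie outside the band on both arrays, and the arrays of Serpina5 are the farthest apart (0.49 and -0.29).

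The inhibitors of plasminogen activators and thrombin come first. Serpine2, or protease nexin-1, which inhibits thrombin and plasminogen activators, had signals of 509.7 and 496.7 in the arch pool and 600.3 and 591.5 in the thoracic pool. Both arch signals were below both thoracic signals, with a log2 ratio of -0.24 ± 0.01, which was under the 1.5-fold limit.

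Serpini1, or neuroserpin, inhibits tissue-type plasminogen activator and is best known from neurons. Its signals were 730.7 and 727.8 in the arch pool and 1116.8 and 1077.9 in the thoracic pool. The pools did not overlap, and the log2 ratio was -0.59 ± 0.03, a 1.5-fold lower signal in the arch pool. On the second array alone the ratio, -0.57, missed the 1.5-fold limit. Of 14 nerve markers compared, 6 had ratios above 0 and 4 below 0 on both arrays, with 0 called in either direction and a median of 0.00 on the log2 scale. The summed signal of those nerve markers was 17991 and 17988 in the arch pool and 15982 and 16186 in the thoracic pool, of which Pmp22 alone gave 10515.9 and 10752.6 in the arch pool and 9607.9 and 9798.0 in the thoracic pool. Among them, Mbp of myelin was at 0.55 and Uchl1 of neurons at 0.48, while Gap43 of growing axons was at -0.38 and S100b of Schwann cells at -0.35. Their part in the Serpini1 ratio was not tested. In these bulk RNA pools, fewer cells of a type and less RNA per cell cannot be told apart.

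Other serpins that inhibit proteases of clotting and clot dissolution gave small mean ratios. Serpinc1, antithrombin, had signals of 127.3 and 123.4 in the arch pool and 118.8 and 127.3 in the thoracic pool, which overlapped, and its second probe gave -0.17 ± 0.07 on the log2 scale where the first gave 0.03 ± 0.10. Serpind1, heparin cofactor II, had signals of 64.1 and 68.6 in the arch pool and 63.8 and 71.3 in the thoracic pool. Serpinf2, the plasmin inhibitor antiplasmin, had signals of 103.1 and 105.5 in the arch pool and 102.5 and 107.4 in the thoracic pool. All 3 overlapped between pools, with mean log2 ratios of 0.03, -0.02 and -0.01 in the order named. Serpina5, the protein C inhibitor, had ratios of opposite sign on the arrays (0.49 and -0.29), and Serpina10, which inhibits factor Xa with protein Z as its cofactor, did too (0.08 and -0.17). Serpinb2, an inhibitor of urokinase, lay at -0.03 ± 0.10.

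The proteases and receptors that these serpins meet are given next. Of 14 plasminogen activators, receptors and partners compared, 1 was called higher in arch, against 0.473% of all genes, and 0 higher in thoracic, against 0.145%, with a median log2 ratio of -0.01 over the list and over all genes. The gene called was Thbd, thrombomodulin, which turns thrombin towards protein C activation, at 1.16. Below the rule, Lrp1, a clearance receptor that takes up serpin-protease complexes, was at 0.83 and Plaur, the urokinase receptor, at 0.36. The activators themselves, Plat and Plau, were at 0.14 and -0.03. Of 16 coagulation proteases, cofactors and receptors, 0 were called in either direction. Their largest ratios were 0.87 for F2r, a thrombin receptor, and -0.41 for F13a1, which cross-links fibrin, followed by Proz, protein Z, at -0.40. F2, prothrombin, was not well above background in the arch pool.

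Serping1, the C1 inhibitor, holds back the first proteases of complement and the contact system. Its signals were 7306.8 and 7056.1 in the arch pool, against 5932.4 and 5181.1 in the thoracic pool. Both arch signals exceeded both thoracic signals, with a log2 ratio of 0.37 ± 0.10. Of 10 contact and complement genes compared (proteases, kininogen and the receptors Bdkrb1 and Bdkrb2), 0 were called in either direction. Their median log2 ratio was -0.06. C1ra, a direct target of Serping1, was at 0.25, while Kng1, kininogen of the contact system, was at -0.78 and Cfd, complement factor D, at -0.35.

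Clade A held the serpin with the lowest ratio. Serpina1d, one of the mouse copies of antitrypsin, the plasma inhibitor of neutrophil elastase, had signals of 239.5 and 247.2 in the arch pool, against 426.1 and 420.5 in the thoracic pool. The pools were well apart on both arrays, with a log2 ratio of -0.80 ± 0.05, or 1.74-fold lower in arch, and it ranked 54th of 22813 genes from the thoracic end. Of the other copies on the arrays, Serpina1e was at -0.05 ± 0.11, with overlapping pools. Serpina1b was too dim to be compared, with signals of 60.9 and 59.8 in the arch pool and 69.7 and 73.2 in the thoracic pool, of which only 1 of the thoracic ones was well above background. To show how alike these copies are at their starts, the windows from 250 bases before to 50 bases after the start are printed for the 3 antitrypsin genes that were on the arrays and had an entry, from RefSeq (GRCm38.p6). They are chr12:103773584-103773883 for Serpina1d, chr12:103738140-103738439 for Serpina1b and chr12:103956848-103957147 for Serpina1e, all on the minus strand and all printed 5′ to 3′. Capitals mark GTTAAT, a half-site of hepatocyte nuclear factor 1, searched on both strands.
Serpina1d: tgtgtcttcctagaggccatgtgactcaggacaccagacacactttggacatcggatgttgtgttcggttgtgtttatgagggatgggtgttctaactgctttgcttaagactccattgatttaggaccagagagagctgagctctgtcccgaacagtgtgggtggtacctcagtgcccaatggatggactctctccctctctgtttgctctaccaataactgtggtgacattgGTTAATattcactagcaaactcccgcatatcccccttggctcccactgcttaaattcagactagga
Serpina1b: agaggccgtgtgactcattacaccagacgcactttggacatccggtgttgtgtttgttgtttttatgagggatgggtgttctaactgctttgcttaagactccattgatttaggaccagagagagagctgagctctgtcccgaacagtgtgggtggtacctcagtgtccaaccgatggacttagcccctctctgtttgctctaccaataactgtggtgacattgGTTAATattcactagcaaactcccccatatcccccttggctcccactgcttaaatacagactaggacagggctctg
Serpina1e: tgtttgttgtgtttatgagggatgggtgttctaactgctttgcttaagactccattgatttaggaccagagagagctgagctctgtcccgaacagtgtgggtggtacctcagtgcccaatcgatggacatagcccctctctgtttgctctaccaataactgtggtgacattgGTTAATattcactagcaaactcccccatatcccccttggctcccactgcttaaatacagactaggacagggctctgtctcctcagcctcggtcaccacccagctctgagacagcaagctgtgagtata
Each window held 1 match to GTTAAT, which 7.1% of 32851 promoter windows of the same length held, and none held TATAAA. Local alignment gave 94.1% identity between Serpina1d and Serpina1b over 288 bases, and 97.5% between Serpina1d and Serpina1e over 237 bases. A match is a description of these letters and shows no binding.

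Antitrypsin is a product of liver cells, so their markers are given beside it. Of 17 hepatocyte markers compared, 13 had ratios below 0 and 2 above 0 on both arrays, with a median log2 ratio of -0.25. Among them, 1 was called higher in thoracic, against 0.145% of all genes, and 1 higher in arch, against 0.473%. Mup1, a major urinary protein, was at -3.23, Alb, albumin, at -0.62 and Hp, haptoglobin, at -0.52, while Ahsg, fetuin-A, was at 1.29. The summed signal of the list was 6986 and 7019 in the arch pool and 10722 and 10591 in the thoracic pool. Without Mup1 it was 6631 and 6657 in the arch pool and 7222 and 7354 in the thoracic pool, so Mup1 made most of that gap. Of these markers, 14 were well above background in arch and 17 in thoracic. F2, Apoa1 and Apoa2 entered the comparison through their thoracic signal alone. The direction of their ratios, below 0, was therefore favoured by the filter. Alb had signals of 95.1 and 82.0 in the arch pool and 138.3 and 134.0 in the thoracic pool. The part of these hepatocyte markers in the Serpina1d ratio was not tested.

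The antichymotrypsin-type serpins of clade A gave small ratios. Serpina3n, the secreted mouse counterpart of antichymotrypsin, had signals of 377.5 and 363.7 in the arch pool, against 319.0 and 280.0 in the thoracic pool, without overlap and with a log2 ratio of 0.31 ± 0.10. Serpina3m had signals of 495.1 and 518.2 in the arch pool and 514.7 and 544.3 in the thoracic pool, which overlapped, at -0.06 ± 0.01. Serpina3g, which inhibits lysosomal cathepsins in mouse lymphocytes, was at 0.19 ± 0.03, and Serpina3k was at -0.21 ± 0.14, with its second probe not well above background in the arch pool. Serpina3a and Serpina3c were at -0.12 and 0.01. Over the 14 clade A genes compared, the median was -0.02 on the log2 scale. Of them, 3 were above 0 on both arrays (32.4% of all genes) and 4 below 0 on both (35.2% of all genes).

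Clade B held the serpin with the highest ratio. Serpinb6b, an intracellular inhibitor of granzyme A in the mouse, had signals of 1270.2 and 1223.3 in the arch pool, against 624.2 and 631.1 in the thoracic pool. Both arch signals lay far above both thoracic signals, with log2 ratios of 1.02 and 0.95 on the arrays and a mean of 0.99 ± 0.05. It ranked 115th of 22813 genes from the arch end, just under the 2-fold limit, and it passed that limit when only array 1 was used, at 1.02. It also passed with a background offset of 0 (1.04) and with the scanner software's own ratio (1.05). Its close relatives did not follow. Serpinb6a had signals of 4639.2 and 4561.5 in the arch pool and 4815.0 and 4984.0 in the thoracic pool, at -0.09 ± 0.05, with its second probe at 0.06. Serpinb6c had signals of 2374.0 and 2096.1 in the arch pool and 2554.9 and 2309.5 in the thoracic pool, which overlapped, at -0.12 ± 0.02. On chromosome 13, the serpins on either side of Serpinb6b are Serpinb1c, at 0.04, and Serpinb9, at 0.19.

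**Figure D2:**
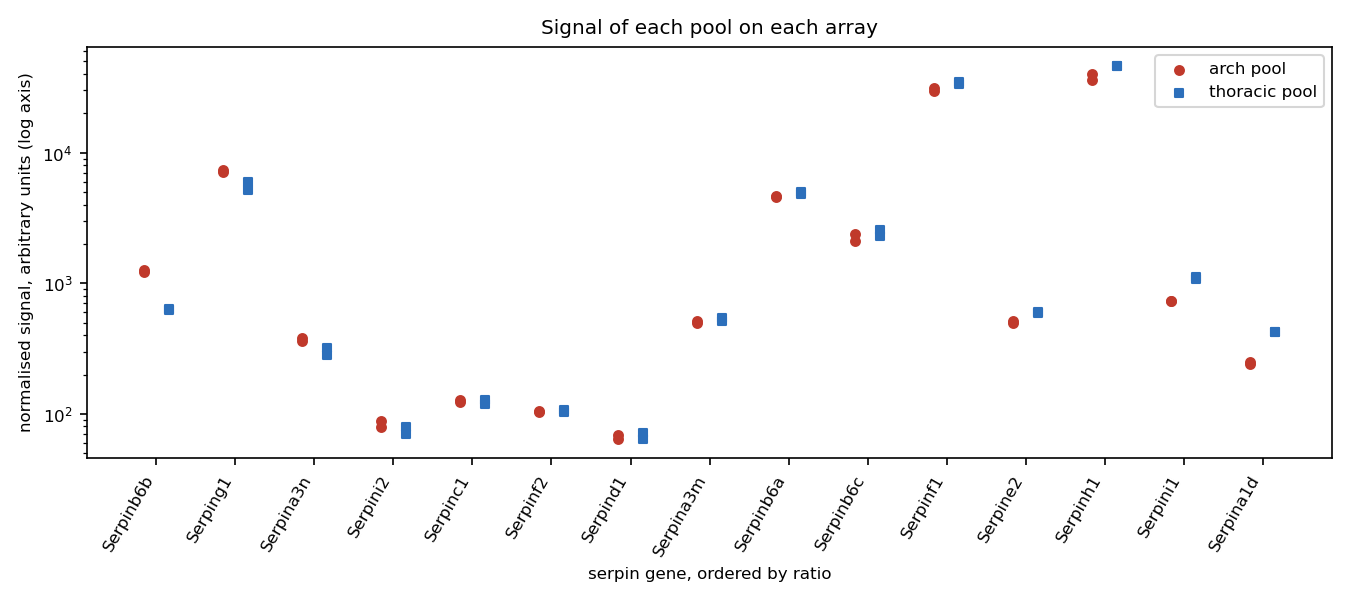
Background-corrected, normalized signal (with the offset of 50) on a log scale for the serpins described in full. The arch pool is on the left and the thoracic pool on the right, with 1 point per array. Serpinb6b sits at 1270.2 and 1223.3 in the arch pool and at 624.2 and 631.1 in the thoracic pool, and Serpina1d at 239.5 and 247.2 in arch and 426.1 and 420.5 in thoracic.

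The starts of the 3 Serpinb6 genes are printed because these genes share a name and a chromosome and lay on either side of 0. The windows, from RefSeq (GRCm38.p6), are chr13:32965011-32965310 on the plus strand for Serpinb6b, chr13:34002745-34003044 on the minus strand for Serpinb6a, the first of 2 listed starts, and chr13:33905142-33905441 on the minus strand for Serpinb6c. Each is printed 5′ to 3′. Capitals mark matches on either strand to the GC box GGGCGG. They also mark the TATA box, spelled TATAAA.
Serpinb6b: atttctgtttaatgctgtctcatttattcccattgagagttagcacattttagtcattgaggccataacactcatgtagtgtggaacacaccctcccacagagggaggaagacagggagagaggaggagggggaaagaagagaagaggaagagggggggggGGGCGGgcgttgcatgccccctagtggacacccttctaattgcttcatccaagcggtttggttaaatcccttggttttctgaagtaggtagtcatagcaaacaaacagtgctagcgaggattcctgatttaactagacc
Serpinb6a: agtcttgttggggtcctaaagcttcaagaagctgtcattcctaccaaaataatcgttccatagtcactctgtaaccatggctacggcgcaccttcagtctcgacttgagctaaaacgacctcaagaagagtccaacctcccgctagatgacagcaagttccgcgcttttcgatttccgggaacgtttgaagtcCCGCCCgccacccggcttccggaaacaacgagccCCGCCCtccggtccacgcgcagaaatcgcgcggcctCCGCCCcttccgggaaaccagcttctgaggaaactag
Serpinb6c: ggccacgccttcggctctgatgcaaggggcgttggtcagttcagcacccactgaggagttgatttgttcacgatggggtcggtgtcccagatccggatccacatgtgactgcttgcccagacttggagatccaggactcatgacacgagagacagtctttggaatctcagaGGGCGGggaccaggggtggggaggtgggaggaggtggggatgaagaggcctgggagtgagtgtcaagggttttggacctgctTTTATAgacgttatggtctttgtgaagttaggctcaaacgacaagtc
Serpinb6b held 1 GC box, Serpinb6a held 3, and Serpinb6c held 1 GC box and 1 TATA box. A GC box was found in 35.7% and a TATA box in 13.6% of the 32851 windows, and no match overlapped another.

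Markers of macrophages and mesothelium are given beside Serpinb6b. Of 18 macrophage markers compared, 6 were called higher in arch, against 0.473% of all genes, and 0 higher in thoracic, against 0.145%. Their median log2 ratio was 0.31. Ratios were above 0 on both arrays for 11 of them and below 0 on both for 4. Gpnmb, a membrane glycoprotein of lipid-laden macrophages, was at 2.34 and the secreted macrophage protein Cd5l at 4.09, while Adgre1, the macrophage surface marker, was at -0.06, Cd14 at -0.14, Itgax at -0.17 and Cd163 at -0.27. The summed signal of the 17 macrophage markers other than Lyz2, whose probe was saturated, was 36843 and 36392 in the arch pool and 18440 and 18773 in the thoracic pool. Of 12 mesothelial markers, 10 were called higher in arch and 0 higher in thoracic, against the same shares of all genes. They had a median of 1.35 and a summed signal of 10574 and 10159 in the arch pool against 4136 and 4114 in the thoracic pool. All markers of both lists were well above background in the thoracic pool too. Heart muscle markers (5 of 15 called higher in arch, median 0.27) and cartilage markers (3 of 15, median 0.02) had 0 genes called higher in thoracic. The same shares of all genes stand beside these counts. Other marker lists had medians of 0.39 (endothelium), 0.24 (adventitial fibroblasts), 0.20 (platelets), 0.17 (smooth muscle) and 0.10 (neutrophils). Those of nerve, keratinocytes, mast cells and hepatocytes were 0.00, -0.03, -0.10 and -0.25. The part of any of these cell types in the Serpinb6b ratio was not tested.

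The other intracellular serpins stayed near 0. Serpinb9, the inhibitor of granzyme B, was at 0.19 ± 0.08, Serpinb1a, which inhibits neutrophil elastase, at 0.06 ± 0.06, and Serpinb8, a furin inhibitor, at 0.12 ± 0.03. Of the 18 clade B genes compared, 17 were within 0.2 of 0 on the log2 scale. Small ratios were usual on the arrays, with a median size of 0.0751 over all genes. In clade B, 5 were above 0 on both arrays (32.4% of all genes) and 7 below 0 on both (35.2% of all genes). Serpinb3b was not well above background in the arch pool, where it gave signals of 62.7 and 64.5, against 68.9 and 66.4 in the thoracic pool. It entered the comparison through its thoracic signal alone, so the direction of its log2 ratio, -0.09 ± 0.07, was favoured by the filter. No fold is read from signals this dim. Serpinb5, the epithelial serpin maspin, Serpinb13, Serpinb3d, Serpinb9b and the gene named Serpinb3c in the files had no probe that was well above background in either pool on both arrays. Likewise, of clade A, Serpina11, Serpina12 (vaspin, from fat) and Serpina1b had none either. None of the 12 leukocyte and mast cell serine proteases compared was called, with a median of 0.00, and Gzma, granzyme A, the target of Serpinb6b, was at 0.05. Of 13 lysosomal cathepsins compared, 1 was called higher in arch, against 0.473% of all genes, and 0 higher in thoracic, against 0.145%. Their median was 0.13. Ctss, cathepsin S of macrophages, was at 1.18, while Ctsd and Ctsb were just under the limit at 0.99 and 0.96, and Ctsl was at 0.59. Ctsk was the lowest at -0.40. Of the 13 cathepsins, 7 were above 0 and 4 below 0 on both arrays.

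Among the serpins that do not inhibit proteases, the collagen chaperone Serpinh1, or Hsp47, had signals of 36084.6 and 39846.6 in the arch pool, against 46340.2 and 45883.8 in the thoracic pool. The pools did not overlap, and the log2 ratio was -0.28 ± 0.11. Serpinf1, or PEDF, a secreted factor known to restrain vessel growth, had signals of 31037.5 and 29465.0 in the arch pool and 33540.0 and 35002.7 in the thoracic pool, at -0.18 ± 0.10, with its second probe at -0.21. The hormone carriers Serpina6, for corticosteroids, and Serpina7, for thyroxine, were at -0.03 and 0.00. Of 20 collagen genes and collagen-folding partners of Serpinh1, 0 were called in either direction, with a median log2 ratio of 0.07. Of 15 markers of adventitial fibroblasts, which make collagen, 1 was called higher in arch, against 0.473% of all genes. The count higher in thoracic was 0, against 0.145%. Their median, 0.24, was the ratio of Dcn, whose probe was saturated and whose arrays had opposite signs (0.77 and -0.29). P4ha2, a subunit of the enzyme that hydroxylates collagen, was at -0.61, while Col4a2 and Col1a2, which encode collagen chains, were each at 0.35.

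Serpini2, a clade I serpin known from pancreas, had signals of 79.9 and 87.8 in the arch pool and 69.9 and 78.8 in the thoracic pool, at 0.17 ± 0.03. It was well above background in the thoracic pool on 1 of 2 arrays only.

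Inhibitors outside the superfamily can be set beside the serpins. Of 26 non-serpin protease inhibitors compared, 1 was called higher in arch, against 0.473% of all genes, and 0 higher in thoracic, against 0.145%. Their median log2 ratio was 0.03. The gene called was Wfdc2, a secreted inhibitor also known from epithelia, at 1.19. Timp3, a matrix-bound inhibitor of metalloproteinases, was just under the limit at 0.99, Cst6, a cystatin that inhibits cathepsins, at 0.57, and Pi15 at -0.42. Endothelial markers, which the detergent was meant to remove, had ratios above 0 on both arrays for 14 of 15 genes, with a median of 0.39 and a summed signal of 3845 and 3762 in the arch pool and 2637 and 2574 in the thoracic pool.

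**Figure D3:**
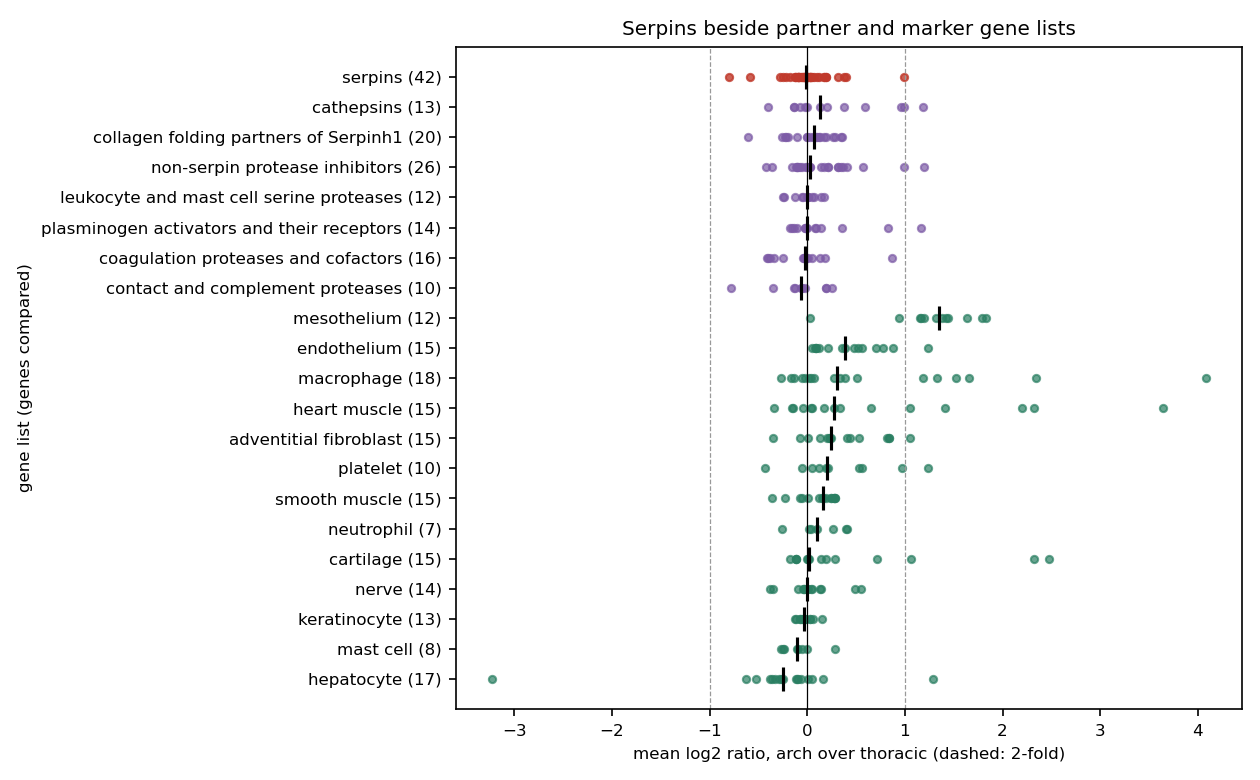
Log2 ratio of arch over thoracic for the serpins and for the lists of partner genes and cell type markers, with 1 point per gene, a black bar for the median of each list and dashed lines at 2-fold. The serpins have a median of -0.02, the mesothelial markers one of 1.35 and the hepatocyte markers one of -0.25.

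For the 10 serpins with 2 probes well above background in at least 1 pool, the probes differed by 0.01 to 0.20 on the log2 scale, with the widest gap for Serpinc1. Over 12 other ways of processing the arrays, 26 of the 42 serpins kept the sign of their ratio wherever they were measured. These 26 are the serpins whose arrays agreed in direction. Leaving out either array was among the 12 ways, so the 16 with arrays of opposite sign had to change. Serpinb6b ranged over 0.95 to 1.05. Serpina1d ranged over -0.96 to -0.73 and Serpini1 over -0.63 to -0.57. The 2 serpins with the brightest signals moved most when loess was replaced by median centring, with Serpinh1 then at -0.52 and Serpinf1 at -0.41. Among dim serpins, the scanner software's ratio put Serpini2 at 0.60, Serpinb9 at 0.44 and Serpina3k at -0.48.

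**Figure D4:**
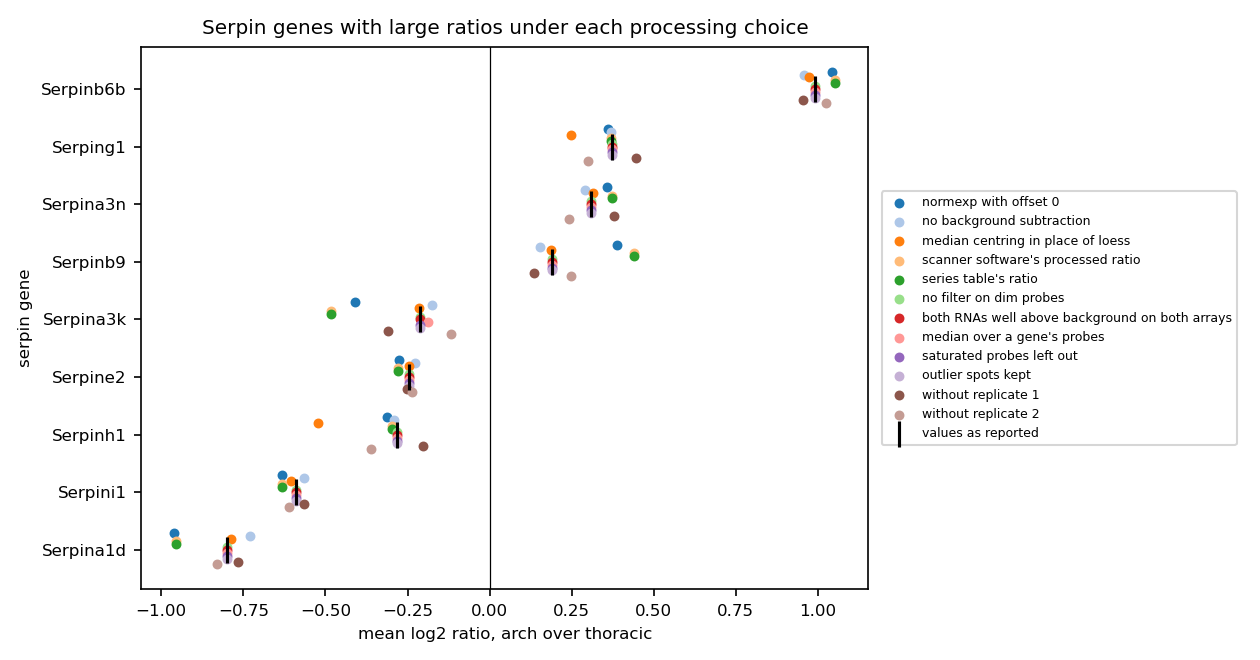
Log2 ratio of arch over thoracic for 9 of the 10 serpins with the largest ratios, with 1 coloured point for each of the 12 other processing settings and a black bar for the reported value. Serpinb6b stays between 0.95 and 1.05, on either side of the 2-fold limit, and none of the 9 genes crosses 0.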

How the data were processed

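RNA of 6 mice was pooled per aortic segment, amplified, labelled and hybridised on 2 Agilent whole-genome mouse arrays with the dyes exchanged, per the labels' protocols. The deposited scanner tables hold fluorescence intensity, local background, flags that mark outlier, saturated or well-above-background spots, and a processed log10 ratio of red over green. The file headers name Agilent Feature Extraction 8.1.1.1, whereas the submitters' processing notes name 9.1.1.1. The authors' deposited series table holds a ratio on the log10 scale that matched that processed ratio, already turned to arch over thoracic on both arrays (correlations of -1 and 0.9998 with red over green, and 35 and 38 of 41174 probes off by over 0.001). The genome build was not given in the sources used here.

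From the deposited mean signals, limma 3.58.1 in R 4.3.3 corrected the background (normexp, offset 50), normalized each array by loess with control spots at weight 0, and scaled signals between arrays (Aquantile), which leaves ratios as they are. Control and outlier spots (8 on array 1 and 5 on array 2) were left out, array 1 was turned, and spots of 1 probe were averaged. The brightest probe well above background in at least 1 pool on both arrays stood for its gene. Names came from accessions through RefSeq tables (58 of 65 serpin probes by accession and 7 by current symbol). Serpinb9f in the files is Serpinb9g by accession. The arrays measure 1 RNA pool per segment, so their number limits the precision and no test between segments was run. The offset of 50 pulls the ratios of dim probes towards 0. With an offset of 0, calls over all genes rose from 108 to 196 in arch and from 33 to 66 in thoracic. Negative control spots averaged 77.0 to 97.1, above local backgrounds of 55 to 66, and their part in the ratios of dim probes was not tested.

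The members and gene lists were chosen with earlier results of these data known. Values of both pools are printed for serpins that reached 1.5-fold one way on both arrays and for the 2 brightest of each clade. Of the other lists, only a selection of members is named, mostly those past the rule or with large ratios, plus main targets of serpins. Not every called member is named, and for macrophages and cathepsins, members near or below 0 are named too. The values of 1 gene that these rules select are not reported here, though it is included in the counts and medians. The list sums without Mup1 or Lyz2 were chosen after seeing the data. The steps were tested on simulated data. Sequences were read with Biopython 1.88 and figures drawn with matplotlib 3.10.9.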

Additional observations from a re-analysis of the deposited data

How the results depend on the processing

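The count of serpins called higher in arch was 0 as reported and 1, Serpinb6b, under 3 alternatives: a normexp offset of 0, the scanner software's processed ratio and the series table's ratio. It ranged over 0 to 1 when either array was left out. The count higher in thoracic was 0 throughout. Over all genes, calls in arch and thoracic were 108 and 33 as reported, against 196 and 66 with an offset of 0 and 232 and 77 with the processed ratio or the series table. They were lower, at 81 and 27, without background subtraction and at 85 and 28 with the median over a gene's probes. The median log2 ratio of the serpins, reported as -0.02, was -0.0705 with an offset of 0, -0.0699 with the processed ratio and the series table, -0.0249 with median centring, -0.0265 without the filter on dim probes (50 genes) and -0.0283 with both RNAs required well above background (37 genes), and it ranged over -0.0231 to -0.013 with an array left out. The cause was not tested. Every ratio is already paired, since both pools lie on each array, so no further replicate block was fitted. Signal limits what can be said of 29 serpins, whose signals were under 200 in every pool.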

Other observations

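A further 9 probes were assigned to serpins here, by current gene name or by their description. In the files they carry a clone, locus or other gene name, so they were not among the 50 genes. Of these, the probe assigned to Serpine3 had signals of 126.8 and 132.4 in the arch pool. In the thoracic pool it had 138.6 and 145.0, at -0.13 on the log2 scale. A clone described as Serpine2 was at -0.13, against -0.24 for the Serpine2 probe reported above. The probes assigned to Serpina1f, Serpina3b, Serpina3f, Serpinb3c and Serpinb6a lay between -0.05 and 0.04.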
